A study of Homo sapiens with 10 samples.

Results

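The pre-B-cell receptor and recombination genes are 10 genes that were listed by symbol, VPREB1, IGLL1, CD79A, CD79B, BLNK, SYK, BTK, RAG1, RAG2 and DNTT, and were matched by Ensembl identifier to 10 of the 63677 gene identifiers of the count files. The rule that names them uses no measured value, but the list was chosen with earlier results of these data known. They were followed in RS4;11, an established BCP-ALL cell line with a KMT2A rearrangement. VEN-insensitive lines (VENins, n = 5) had been grown in parallel under stepwise increasing VEN, an inhibitor of BCL-2, and VEN-sensitive control lines (VENsens, n = 5) under the solvent DMSO. The paper describes VENins lines as held under VEN throughout and VENsens lines as free of it, with VEN washed out before each analysis. Exposure to VEN and insensitivity to it therefore cannot be told apart. All 10 lines descend from the same parental line, each gave 1 RNA-Seq library, and the spread between replicates is therefore that between separately kept lines of a single cell line. Gene counts summed to between 20631907 and 28323643 per library. Levels are given as CPM, counts relative to the library total, after TMM scaling. VENins line 5 stood apart from its group. In pairwise comparisons of the VENins lines, chi-square over degrees of freedom was 13.3 to 14.2 in the 4 pairs with line 5 and 4.31 to 9.68 in the 6 pairs without it, so the members' fold changes are also given without line pair 5.

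A developing B cell first rearranges its immunoglobulin heavy chain locus and then tests the product at its surface. The RAG1 and RAG2 proteins form the recombinase that cuts DNA at recombination signals, and terminal deoxynucleotidyl transferase, the product of DNTT, adds bases without a template at the joints. A rearranged mu heavy chain pairs with the surrogate light chain, made of the VPREB1 and IGLL1 products, and reaches the surface with the CD79A and CD79B chains, whose cytoplasmic tails recruit the kinase SYK. SYK phosphorylates the adaptor BLNK, which brings BTK and phospholipase C gamma together. In normal development DNTT marks the pro-B stage, surrogate light chain genes are active from the pro-B into the large pre-B stage, and BLNK acts as a tumour suppressor in pre-B cells.

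The lines carried the B-lineage programme that the name of the gene set presupposes, but not every marker of its stages. EBF1, a transcription factor of early B cells, had a mean of 278 ± 9.47 CPM (SD) in VENsens and 289 ± 23.7 CPM in VENins lines, and CD22, an inhibitory coreceptor, 211 ± 1.67 and 205 ± 19.0 CPM. Of the B-lineage markers, BLNK stood out by its low level and is described with DNTT. Among pro-B markers IL7R and FLT3 were high, with means of 715 ± 38.0 and 319.8 ± 21.3 CPM in VENsens lines, whereas CD34 had at most 2 counts in any library. Among pre-B markers IGHM, the mu heavy chain gene, had 852 ± 50.6 CPM in VENsens lines, while MME had 1.01 ± 0.279 CPM and IL2RA and CD24 were listed at 0. CRLF2 of the pro-B list and PECAM1 of the list of inhibitors were also at 0 in every library, and whether genes listed at 0 could be counted with the annotation used is not known, so these zeros do not show that a marker is absent. The mature B-cell marker MS4A1 had 0.840 ± 0.181 CPM and the kappa light chain gene IGKC at most 1 count in any library.

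Promoter sequences from RefSeq (GRCh38.p14) matched 9 of the 10 members, all but CD79B. They are shown for 3 pairs of members that are partners in a complex or neighbours on a chromosome: the surrogate light chain genes, the recombinase genes, and BLNK with DNTT. Each stretch ends just before the more upstream of the start sites that RefSeq and GENCODE give, and is 150 bases long, or 139 for VPREB1. Capitals mark 4 motifs searched on both strands: the E-box CAGNTG bound by E proteins such as TCF3, the EBF1 core CCCNNGGG, the octamer ATGCAAAT bound by POU2F proteins, and the ETS core AGGAAG. Neighbouring matches can run together, and matches can overlap.
VPREB1, chr22:22244536-22244674, plus strand: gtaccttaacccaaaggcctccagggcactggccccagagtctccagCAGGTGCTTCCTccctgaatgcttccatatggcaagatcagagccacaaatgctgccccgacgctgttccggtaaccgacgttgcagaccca
IGLL1, chr22:23580309-23580458, minus strand: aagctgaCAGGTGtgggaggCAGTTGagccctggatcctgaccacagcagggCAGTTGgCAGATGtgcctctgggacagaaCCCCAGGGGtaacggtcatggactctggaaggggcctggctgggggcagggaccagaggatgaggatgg
RAG1, chr11:36510203-36510352, plus strand: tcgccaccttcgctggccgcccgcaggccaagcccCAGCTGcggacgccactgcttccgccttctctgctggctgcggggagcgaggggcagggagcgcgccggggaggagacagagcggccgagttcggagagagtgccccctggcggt
RAG2, chr11:36598280-36598429, minus strand: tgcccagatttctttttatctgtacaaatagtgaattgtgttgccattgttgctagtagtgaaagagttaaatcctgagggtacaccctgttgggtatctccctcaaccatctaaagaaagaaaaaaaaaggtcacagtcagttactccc
BLNK, chr10:96271588-96271737, minus strand: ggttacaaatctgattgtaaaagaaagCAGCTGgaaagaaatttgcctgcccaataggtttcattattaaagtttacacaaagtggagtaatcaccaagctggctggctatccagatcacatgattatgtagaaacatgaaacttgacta
DNTT, chr10:96304246-96304395, plus strand: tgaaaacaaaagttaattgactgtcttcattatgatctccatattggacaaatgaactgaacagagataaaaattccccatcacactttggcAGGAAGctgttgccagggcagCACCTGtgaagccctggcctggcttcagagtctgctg
An E-box was found in 7062 of 24111 promoter windows of 150 bases (29.3%), an EBF1 core in 10.1%, an ETS core in 18.4% and an octamer in 1.04%. The IGLL1 window held 4 E-box matches and 2 overlapping EBF1 core matches. VPREB1 and DNTT each held 1 E-box and 1 ETS core, which lie side by side in VPREB1. BLNK and RAG1 each had 1 E-box, and RAG2 had none of the 4 motifs. The recombinase genes differed in base composition, with 74.0% G or C in the RAG1 window and 39.3% in that of RAG2. These are matches of letters and not sites shown to be bound.

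Levels between genes were compared per kilobase of exon, counting every exon base of a gene once. The surrogate light chain genes led, with 752.98 ± 47.4 CPM per kilobase for IGLL1 and 744 ± 15.3 for VPREB1 in VENsens lines, and their ranges over the 10 lines overlapped. CD79A followed with 364 ± 16.0 CPM per kilobase and CD79B with 71.4 ± 8.57, although their products pair in the receptor. The kinases came next, BTK with 46.2 ± 1.01 CPM per kilobase and SYK with 32.1 ± 0.992. RAG1 had 29.6 ± 2.89 CPM per kilobase, which overlapped SYK over the lines, and RAG2 had 20.5 ± 1.08, which overlapped RAG1. DNTT and BLNK were lowest, at 2.55 ± 1.14 and 0.809 ± 0.188 CPM per kilobase, and overlapped each other but no other member. With the longest transcript as length, the means over all lines kept this order, but SYK and RAG1 were nearly level, at 32.1 and 32.0 CPM per kilobase, and in VENsens lines RAG1 was above SYK, at 35.3 and 33.4. Some values depend on the length used. In VENsens lines the longest transcript gave 117 CPM per kilobase for CD79B, 76.4 for BTK and 1.66 for BLNK. The submitters' processing notes name Bowtie2, which does not split a read across an intron, and the part of such reads in the levels of genes with short exons was not tested.

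**Figure D1:**
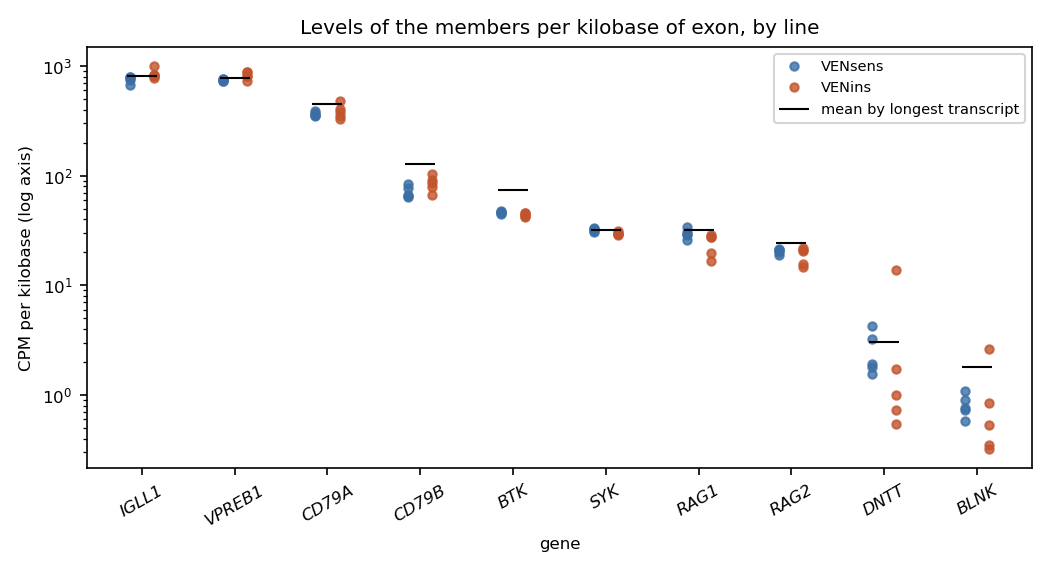
Level of each member per kilobase of exon (CPM per kilobase, log axis), with 1 point per line for 5 VENsens and 5 VENins lines and a black dash for the mean over all lines when the longest transcript is used as length. The surrogate light chain genes are at the top and DNTT and BLNK at the bottom, with 1 VENins line well above the others in both.

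The question for the comparison was whether expression of these genes differed between VENins lines, insensitive to VEN and kept under it, and VENsens lines. All 10 members passed edgeR's filter on low counts and entered the quasi-likelihood test, with line number as a block and Benjamini-Hochberg adjustment over 16756 genes. None of the 10 had an adjusted p under 0.05, against 33 of all tested genes (0.197%), which split into 6 with a higher and 27 with a lower level in VENins lines. With an unadjusted p under 0.05 there were 5 of 10 members, VPREB1, IGLL1, CD79B, SYK and RAG1, and 16.2% of all tested genes. Because the members were chosen with earlier results known, these shares are no test of the list. DESeq2, with or without the block, called 0 members as well. For no member did the VENins and VENsens lines separate without overlap, which they did for 4.66% of tested genes. The log2 fold change was positive for 4 members and negative for 6, with a median of -0.07. Over all tested genes the median was 0.00348 and 51.1% were positive. Without the line block BLNK (0.22) and DNTT (0.49) were positive instead. The more frequent sign among members and the sign of their median therefore depend on the block. With 1 line pair left out, the members with an unadjusted p under 0.05 in edgeR were 6 of 10 without pair 1 (16.8% of all tested genes), 1 without pair 2 (8.41%), 4 without pair 3 (13.3%), 6 without pair 4 (14.98%) and 0 without pair 5 (16.4%). In bulk RNA, fewer cells that express a gene and less RNA per cell cannot be told apart.

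**Figure D2:**
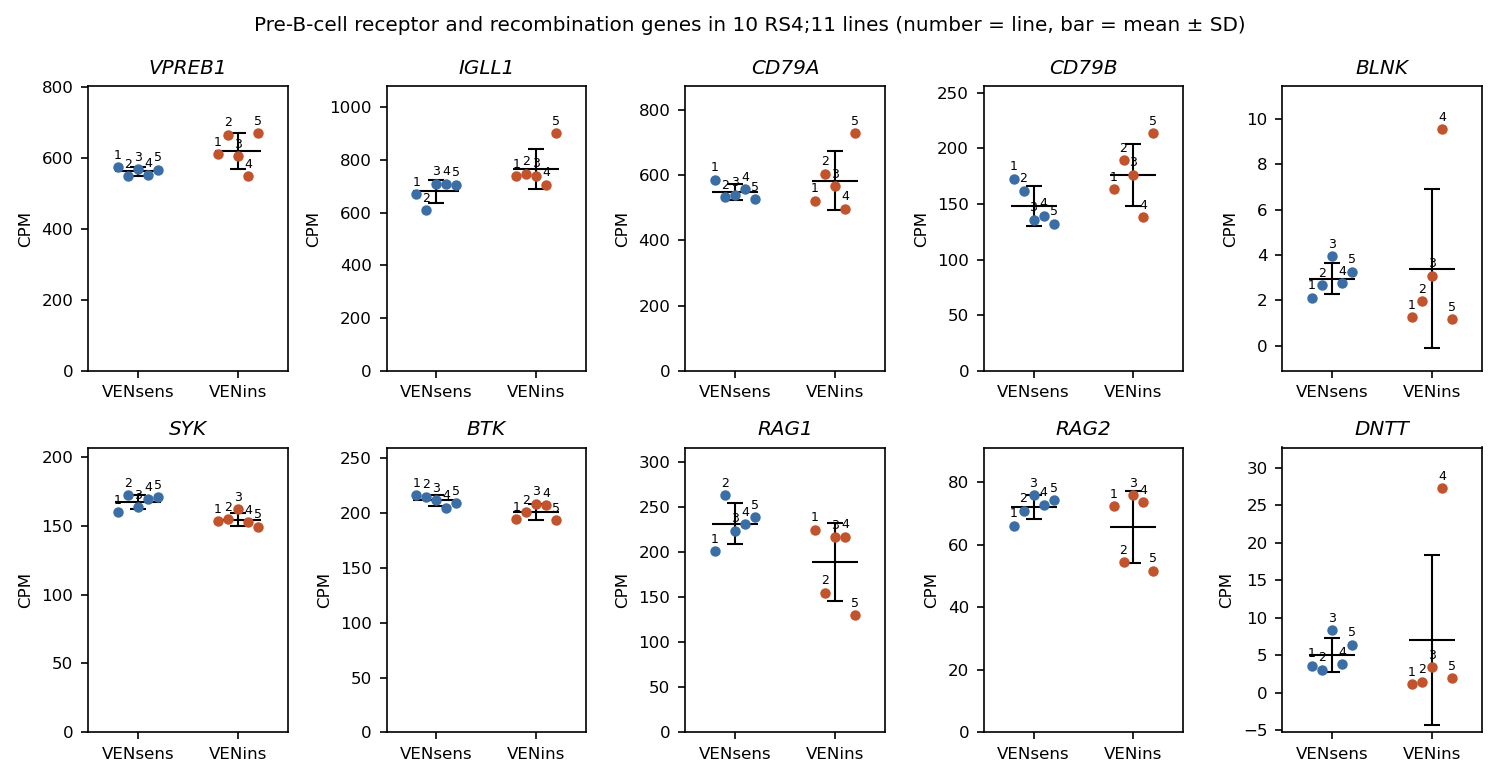
CPM of each member in 5 VENsens (blue) and 5 VENins (orange) lines, with the line number above each point and the mean ± SD in black. The groups overlap for each of the 10 members, VENins line 5 is the highest line for VPREB1, IGLL1, CD79A and CD79B and the lowest for RAG1 and RAG2, and VENins line 4 is the highest for BLNK and DNTT.

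VPREB1 (ENSG00000169575), the first surrogate light chain component, had 575, 549, 568, 551 and 567 CPM in VENsens lines 1 to 5 and 610.1, 666, 605, 548 and 669 CPM in VENins lines 1 to 5. The VENsens lines lay close together, and 4 of the 5 VENins lines were above all of them while line 4 was below them. The difference was 0.14 on the log2 scale (95% interval 0.02 to 0.25, edgeR adjusted p = 0.228), or 0.11 without line pair 5. IGLL1 (ENSG00000128322), the second component, had 670.4, 609.8, 709, 709 and 705 CPM in VENsens against 737, 747, 739, 705 and 899 CPM in VENins lines. VENins line 5 was far above the rest, and line 4 lay within the VENsens range. The log2 difference was 0.17 (0.04 to 0.29, edgeR adjusted p = 0.183), or 0.12 without line pair 5. IGLL1 has a close copy, IGLL5, and reads that match both may have been set aside or split by the counting, so both values are uncertain. Both genes lie on chromosome 22, 1328 kb apart in GRCh38.

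CD79A (ENSG00000105369), a signalling chain of the receptor, had 586, 532, 539, 557 and 526 CPM in VENsens against 521, 604, 565, 496 and 727 CPM in VENins lines. The VENins lines spread to both sides of the VENsens range, with line 5 highest and line 4 lowest of all. The log2 difference was 0.08 (-0.09 to 0.24, edgeR adjusted p = 0.670) and became -0.02 without line pair 5. CD79B (ENSG00000007312), its partner, had 173, 162, 136, 139 and 132 CPM in VENsens against 163, 189, 176, 138 and 213 CPM in VENins lines. VENins lines 2, 3 and 5 were above all VENsens lines. The log2 difference was 0.24 (0.05 to 0.43, edgeR adjusted p = 0.200). It was 0.13 without line pair 5. With no filter on low counts, edgeR called CD79B (log2 fold change 0.24, adjusted p = 0.00709) in a fit that called 2.02% of 32884 genes. Over the alternatives with each line pair left out, its edgeR adjusted p was 0.107 to 0.584.

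The kinases varied little. SYK (ENSG00000165025), which docks to the phosphorylated CD79 tails, had 160.0, 172, 163, 169 and 171 CPM in VENsens against 153, 155, 162, 152 and 149 CPM in VENins lines. It was lower in VENins lines in all 5 line pairs, as were 6.66% of tested genes, and the groups overlapped only through VENins line 3. The log2 difference was -0.11 (SE 0.05, edgeR adjusted p = 0.294), or -0.09 without line pair 5. BTK (ENSG00000010671), which acts with phospholipase C gamma after BLNK, had 205 to 216 CPM in VENsens against 193 to 208 CPM in VENins lines, with a log2 difference of -0.07 (SE 0.05, edgeR adjusted p = 0.497), or -0.06 without line pair 5. The SD of log2 CPM over the 10 lines put SYK at the 10.7th and BTK at the 3.56th percentile of tested genes.

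**Figure D3:**
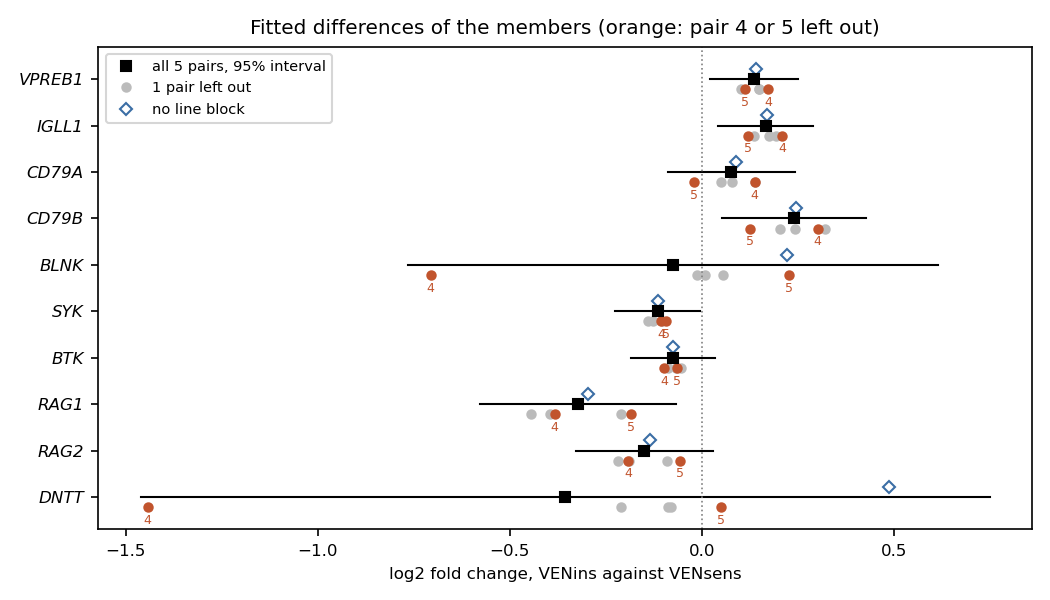
Log2 fold change of each member, VENins against VENsens lines, with its 95% interval in edgeR's test with the line block (black), with 1 line pair left out (circles, orange and numbered for pairs 4 and 5) and without the line block (open diamonds). The intervals of BLNK and DNTT are the widest, and for DNTT the value moves from -0.36 to -1.44 without pair 4.

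RAG1 (ENSG00000166349), the recombinase subunit that holds the catalytic site, had 201, 263, 224, 231 and 239 CPM in VENsens lines. In VENins lines it had 225, 155, 216, 217 and 129.6 CPM. VENins lines 2 and 5 were below every other line, and the other 3 VENins lines lay within the VENsens range. The log2 difference was -0.32 (-0.58 to -0.07, edgeR adjusted p = 0.204), or -0.18 without line pair 5. With no filter on low counts, edgeR called RAG1 (log2 fold change -0.32, adjusted p = 2.20e-05) in the fit that called 2.02% of 32884 genes. The fold change was nearly the same as with the filter, and the SE was 0.0596 in place of 0.119. With each line pair left out from the filtered fit the edgeR adjusted p was 0.0935 to 0.689. RAG2 (ENSG00000175097), its partner, had 66.0, 70.9, 75.8, 72.8 and 74.2 CPM in VENsens against 72.3, 54.4, 75.9, 73.5 and 51.7 CPM in VENins lines. The same VENins lines, 2 and 5, were the lowest. The log2 difference was -0.15 (-0.33 to 0.03, edgeR adjusted p = 0.402), or -0.06 without line pair 5.

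The recombinase genes are neighbours on chromosome 11 and their gene models, introns included, overlap by 17.6 kb in GRCh38 on opposite strands. How much of this stretch is exon in both genes was not measured. The library kit does not keep the strand of the RNA, so reads from the shared stretch cannot be told apart, and both values are uncertain to that extent. Over the 10 lines Pearson's r between their log2 CPM was 0.92 and Spearman's rho 0.43, and r was 0.23 without VENins lines 2 and 5, so the relation rests on those lines. TRAF6, the next gene on the side of the RAG1 start, had a mean of 19.1 ± 1.21 CPM in VENsens against 18.3 ± 1.28 CPM in VENins lines, with 17.3 CPM in VENins line 2 and 16.9 CPM in VENins line 5. C11orf74, whose model overlaps the RAG2 start, had 1.44 ± 0.399 and 1.06 ± 0.334 CPM. PRR5L, beyond TRAF6, had 1.65 ± 0.253 and 2.31 ± 0.428 CPM, higher in VENins lines in all 5 pairs and without overlap (log2 fold change 0.48, edgeR adjusted p = 0.156).

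DNTT (ENSG00000107447) had 3.58, 3.05, 8.31, 3.77 and 6.38 CPM in VENsens lines. In VENins lines it had 1.08, 1.43, 3.38, 27.3 and 1.96 CPM, which rest on 23 to 694 counts per library over both groups. VENins line 4 was far above every other line, whereas VENins lines 1, 2 and 5 were below all VENsens lines. The highest line exceeded the lowest by 25.2-fold. With all 5 pairs the log2 fold change was -0.36 (-1.46 to 0.75, edgeR adjusted p = 0.790), and it was 0.49 without the line block. DESeq2 with the block gave -0.81. Without line pair 4 it was -1.44 (edgeR adjusted p = 5.12e-05), a call in a fit that called 1.97% of 16768 genes, and without line pair 5 it was 0.05. The adjusted p with each line pair left out spanned 5.12e-05 to 0.978.

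BLNK (ENSG00000095585), the adaptor of SYK, had 2.12, 2.66, 3.94, 2.77 and 3.27 CPM in VENsens against 1.27, 1.96, 3.09, 9.55 and 1.18 CPM in VENins lines. The same lines were high and low as for DNTT, with VENins line 4 highest and VENins lines 1, 2 and 5 below all VENsens lines. The log2 fold change was -0.08 (-0.76 to 0.61, edgeR adjusted p = 0.939), -0.71 without line pair 4 and 0.23 without line pair 5. DESeq2 with the block gave -0.27 for BLNK. Its adjusted p with each line pair left out was 0.0737 to 0.998. By the SD of log2 CPM over the 10 lines, BLNK was at the 99.9th percentile of all tested genes and DNTT at the 99.98th.

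BLNK and DNTT are neighbours on chromosome 10 that point away from each other, with starts 32.8 kb apart in GRCh38. Over the 10 lines r between their log2 CPM was 0.94 and rho 0.90, and r was 0.92 without VENins lines 4 and 5. Among 16755 other tested genes, DNTT had the third highest r with BLNK. ZNF518A, whose model overlaps the end of BLNK, had 118 CPM in VENins line 4 and 94.1 to 111 CPM in the other VENins lines, with 105 to 119.6 CPM in VENsens lines. OPALIN and the antisense RNA AL136181.1, which overlaps the DNTT start, had at most 3 and 4 counts in any library, and their highest values were in VENins line 4. TLL2, beyond OPALIN, had 0.707 CPM in VENins line 4 and 0.218 to 0.407 CPM in the other VENins lines, and 0.242 to 0.607 CPM in VENsens lines. Without strand information, reads from the stretches that BLNK shares with ZNF518A and DNTT with AL136181.1 cannot be told apart, and BLNK, at a mean of 3.18 CPM beside 109 CPM for ZNF518A, is uncertain to that extent. These neighbours were chosen after the values of BLNK and DNTT were seen.

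**Figure D4:**
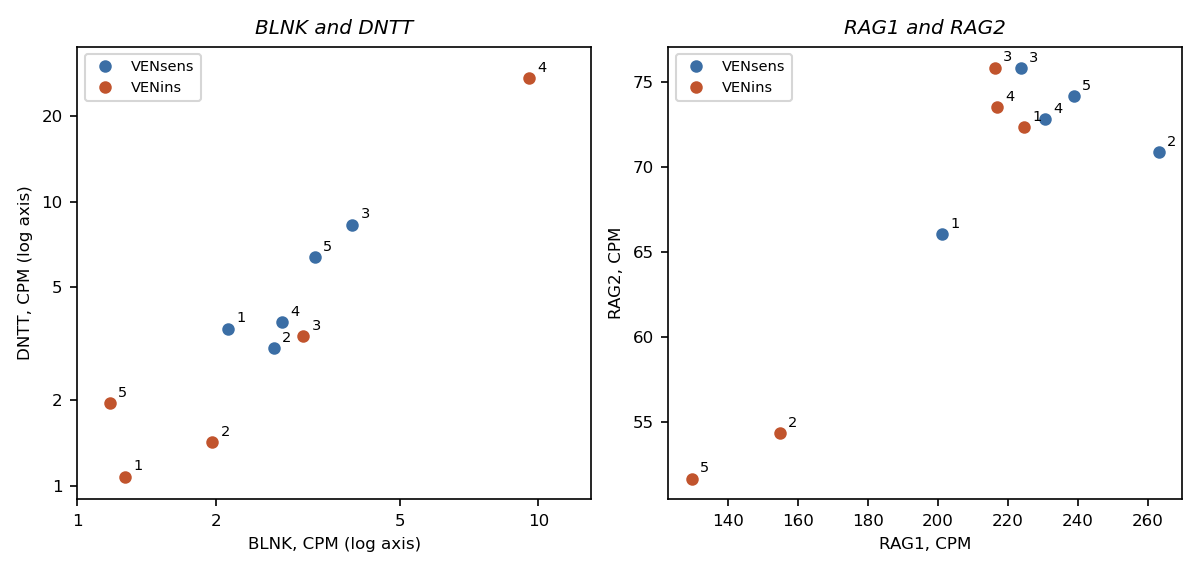
CPM of DNTT against BLNK (log axes, left) and of RAG2 against RAG1 (linear axes, right), with 1 numbered point per line. VENins line 4 is alone at the upper right for BLNK and DNTT, and VENins lines 2 and 5 are alone at the lower left for RAG1 and RAG2.

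Across the 10 lines, the genes of the receptor chains and the recombinase genes varied in opposite directions. RAG1 had an r of -0.87 with VPREB1, -0.83 with IGLL1, -0.88 with CD79A and -0.78 with CD79B. RAG2 had an r of -0.82 with VPREB1, -0.62 with IGLL1, -0.86 with CD79A and -0.81 with CD79B, and rho was between -0.75 and -0.15 for the 8 pairs. Other tested genes reached lower r. Ranked from the highest r with each receptor chain gene, the recombinase genes stood at place 14774 (IGLL1 with RAG2) to 16700 (CD79A with RAG1) of 16755. IGLL1 was at place 449 for VPREB1. Without VENins lines 2 and 5, the lines with the lowest RAG1 and RAG2, r with RAG1 was -0.39, -0.54, -0.38 and -0.26, and r with RAG2 was 0.12, 0.54, -0.42 and -0.45, in the same order. None of the 8 was as strong without those lines, and 2 changed sign. RAG1 had an r of 0.73 with SYK, 0.62 with BTK and 0.47 with BLNK, and 0.67, 0.03 and -0.07 without the same lines. Among the receptor chain genes, VPREB1 had an r of 0.78 with IGLL1, 0.76 with CD79A and 0.84 with CD79B, IGLL1 one of 0.73 with CD79A and 0.55 with CD79B, and CD79A one of 0.82 with CD79B. Without the same lines these were 0.60, 0.26, 0.58, -0.05, -0.13 and 0.54, in that order. DNTT, a recombination gene by function, had an r of 0.37 with RAG1, or -0.15 without those lines, and BLNK, a receptor gene by function, one of -0.69 with CD79B, or -0.54. The receptor chain genes and the recombinase genes also differ in exon length and base composition. The longest transcripts have 59.5% (VPREB1) to 62.9% (IGLL1) G or C for the receptor chain genes, 41.6% for RAG1 and 39.8% for RAG2. The part of length and base composition in these correlations was not tested. All of these describe the same 10 libraries, which also differ by condition.

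**Figure D5:**
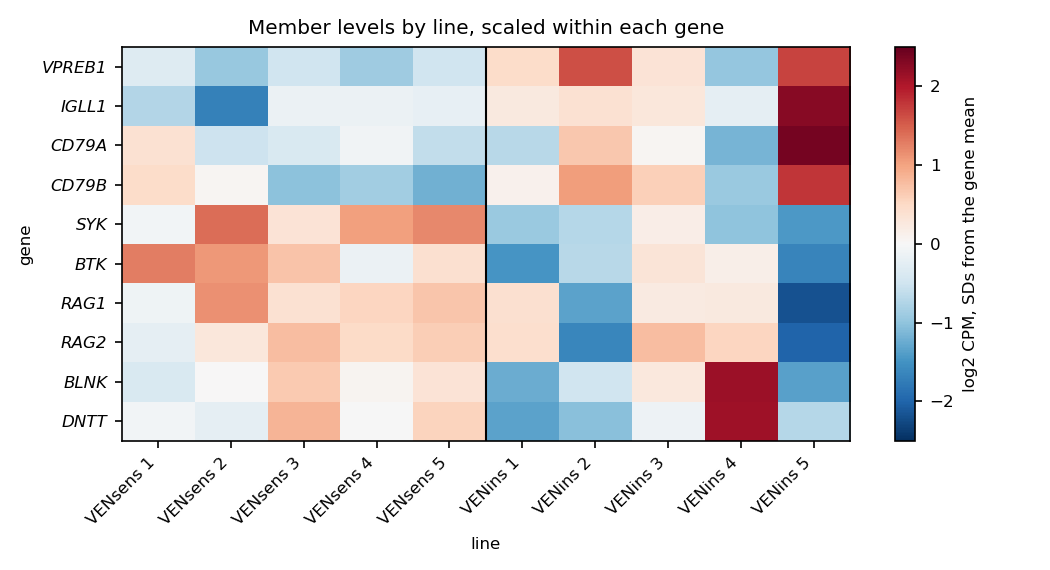
Log2 CPM of each member by line, as SDs from that gene's mean over the 10 lines (red higher, blue lower), with a vertical line between VENsens and VENins lines. VENins line 5 has the highest VPREB1, IGLL1, CD79A and CD79B and the lowest RAG1 and RAG2, and VENins line 4 the highest BLNK and DNTT.

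The genes most like each member over the 10 libraries were looked up among protein-coding genes with a mean of at least 5 CPM. For VPREB1 they were CD63 (r = 0.98) and CENPS (0.96), and for IGLL1 CAPZB (0.98) and TEDC1 (0.98). CD79A was most like BLK (0.97), which encodes a Src-family kinase of B cells, and DCLK2 (0.96), and CD79B was most like FAM53B (0.97) and CBFA2T3 (0.97). SYK was closest to RABGAP1 (0.96) and ABLIM1 (0.95), and BTK to CTTN (0.98) and the MHC class II gene HLA-DRA (0.95). RAG1 went with UBASH3B (0.97) and LMAN1 (0.97), and RAG2 with PSMD5 (0.94) and MAPK13 (0.93). For BLNK they were POU3F3 (0.94) and DNTT (0.94), and for DNTT PLAUR (0.95) and CTSH (0.94). With 10 libraries and 9631 genes compared, high values of r occur for many genes.

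VPREB1, IGLL1, CD79A and CD79B, with positive log2 fold changes, have 755 to 2080 exon bases, and RAG2, BTK, SYK and RAG1, with negative ones, 3502 to 7815. DNTT, with 1972 exon bases and a negative value, does not follow this. BLNK has 3655 exon bases and a negative value, and the sign of BLNK and DNTT depends on the model. Among all tested protein-coding genes the median log2 fold change was 0.07 in the 2387 with the shortest exon length (366 to 2982 bases) and -0.07 in the 2386 with the longest (8302 to 118976 bases). With offsets for length and GC content and the line block, these medians were 0.04 and -0.0024. In that fit the log2 fold change was 0.09 for VPREB1, 0.12 for IGLL1, 0.04 for CD79A and 0.21 for CD79B, and -0.29 for RAG1 and -0.18 for RAG2, with 0 of 10 members called.

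Partners of the receptor complex were a list of 5 genes, of which 4 were tested, 2 with a positive and 2 with a negative log2 fold change and 0 called by edgeR. IGHM had a mean of 852 ± 50.6 CPM in VENsens against 915 ± 134 CPM in VENins lines, and VPREB3, which binds nascent mu chains, 206 ± 8.08 and 248 ± 57.1 CPM. IGHD, the delta heavy chain gene, had 67.6 ± 3.27 and 55.3 ± 6.23 CPM (log2 fold change -0.29, edgeR adjusted p = 0.0974). IGLL5 had 12.2 ± 1.86 and 7.55 ± 2.05 CPM (-0.70, edgeR adjusted p = 0.0782). IGLL1 and IGLL5 had differences of opposite sign, neither of them past the threshold.

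The proximal signalling list holds the Src-family kinases, coreceptors, lipid kinases, adaptors and ubiquitin ligases around SYK. Among all tested genes 51.1% had a positive log2 fold change and 0.197% were called, which is the background for each list below. How far exon length bears on the signs within a list was not tested. Of the 29 tested genes of the proximal list, 5 had a positive and 24 a negative log2 fold change, with a median of -0.06, and 1 was called by edgeR. This was CBLB, an E3 ubiquitin ligase known as a negative regulator of antigen receptor signalling, which fell from 59.6 ± 4.20 to 41.6 ± 4.29 CPM (log2 fold change -0.52, SE 0.08, edgeR adjusted p = 0.0131), lower in all 5 line pairs and without overlap. The call was lost without line pair 2 (log2 fold change -0.46, edgeR adjusted p = 0.198) and without line pair 5 (-0.50, edgeR adjusted p = 0.0563), and with each pair left out the adjusted p was 0.000144 to 0.198. Its relative CBL had 105 ± 9.70 and 92.1 ± 6.68 CPM (edgeR adjusted p = 0.178). PIK3CG, a catalytic subunit of PI3-kinase, had 112 ± 11.9 and 93.3 ± 8.87 CPM (edgeR adjusted p = 0.139). The gene of the list with the most CPM was LAT2, an adaptor (761 ± 54.3 and 786 ± 64.6 CPM), and ZAP70, a relative of SYK usually found in T cells, had 348 ± 3.20 and 339 ± 34.5 CPM.

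Of 20 tested inhibitors of receptor signalling, 8 had a positive and 12 a negative log2 fold change (median -0.03) and 0 were called. Among those with the smallest p were DOK2, an adaptor of inhibitory signals, with 4.11 ± 0.238 and 5.395 ± 1.19 CPM, PAG1, which anchors the kinase CSK, with 164 ± 9.37 and 143 ± 13.5 CPM, and INPP5D, a lipid phosphatase, with 194 ± 8.66 and 175 ± 14.3 CPM. Their edgeR adjusted p lay between 0.175 and 0.248.

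Downstream of the receptor, 4 of 20 tested genes had a positive and 16 a negative log2 fold change (median -0.06) and 0 were called. Over all tested genes 51.1% were positive and 0.197% were called. EGR1, an immediate early gene of ERK signalling, had 5.44 ± 0.724 CPM in VENsens against 3.64 ± 0.420 CPM in VENins lines (log2 fold change -0.58, edgeR adjusted p = 0.0782). PRKCB, the protein kinase C isoform of B-cell receptor signalling, was low at 1.77 ± 0.221 and 1.10 ± 0.187 CPM (-0.68, edgeR adjusted p = 0.108). NFATC2 had 69.0 ± 4.06 and 58.7 ± 5.01 CPM and NFATC3 70.6 ± 10.5 and 55.6 ± 5.32 CPM, with edgeR adjusted p of 0.1199 and 0.123. All 4 were lower in VENins lines in all 5 pairs (6.66% of all tested genes) and did not overlap between groups (4.66%). They were named for the smallest p of their list, which favours both patterns, so these shares are no test of the list. CCND3, a D-type cyclin, led the list by CPM with 974 ± 65.6 and 1067 ± 53.7 CPM.

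Of 21 recombination and end joining genes, all tested, 11 had a positive and 10 a negative log2 fold change (median 0.00427) and 0 were called. HMGB2, a DNA-bending cofactor of the recombinase, had 1365 ± 99.6 CPM in VENsens against 1586 ± 76.9 CPM in VENins lines (log2 fold change 0.22, edgeR adjusted p = 0.0889), higher in all 5 line pairs, as were 7.61% of tested genes. PRKDC, the catalytic subunit of the end joining kinase, had 589 ± 15.2 and 523 ± 34.9 CPM (-0.17, edgeR adjusted p = 0.1403), and was lower in all 5 pairs. ATM, which senses the breaks, had 133 ± 17.5 and 115 ± 3.59 CPM, and TP53BP1, which protects the ends, 99.7 ± 9.61 and 87.4 ± 6.30 CPM.

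Of 27 tested B-lineage transcription factors, 10 had a positive and 17 a negative log2 fold change (median -0.02), and edgeR called 1. PAX5, which directs B-cell commitment and is known to act on CD79A and BLNK, fell from 783 ± 42.9 to 631 ± 34.7 CPM (log2 fold change -0.31, SE 0.05, edgeR adjusted p = 0.0272), lower in all 5 pairs and without overlap. The call was lost without line pair 2 (-0.26, edgeR adjusted p = 0.242), pair 3 (-0.34, edgeR adjusted p = 0.0597) and pair 5 (-0.32, edgeR adjusted p = 0.0647), and with each pair left out the adjusted p was 0.0112 to 0.242. IRF4, known to limit pre-B-cell proliferation, had 216 ± 4.79 and 183 ± 8.69 CPM (-0.24, edgeR adjusted p = 0.0691), and SPIB, an ETS factor, 55.7 ± 7.46 and 74.4 ± 15.7 CPM (0.40, edgeR adjusted p = 0.114). ID2, an inhibitor of E proteins, had 5.26 ± 0.636 and 9.15 ± 2.86 CPM (0.76, edgeR adjusted p = 0.0666). TCF12, an E protein, led the list by CPM, with 1107 ± 50.6 and 1037 ± 54.7 CPM.

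The stage lists share genes with the members. All 6 tested pro-B genes had a negative log2 fold change, with a median of -0.16 and 0 called, and 3 of them are RAG1, RAG2 and DNTT, of which DNTT turns positive without the line block. IL7R, the receptor of interleukin 7, had 637 ± 30.8 CPM in VENins lines (log2 fold change -0.17, edgeR adjusted p = 0.177) and FLT3 299 ± 11.2 CPM (-0.09, edgeR adjusted p = 0.410). Of 7 tested pre-B genes, 5 had a positive and 2 a negative log2 fold change, with a median of 0.13 and 0 called. CD38 was among the negative ones, with 122 ± 8.32 and 111 ± 12.0 CPM. Of 8 B-lineage markers, 4 were positive and 4 negative with a median of 0.00583, and PAX5 was the 1 called.

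Markers of other cell types were low, with exceptions. Of 6 mature B-cell genes 4 were tested, 2 positive and 2 negative with a median of -0.12 and 0 called, and 3 reached 1 CPM. IGHD was the most abundant, TNFRSF13C, the BAFF receptor gene, had 16.5 ± 2.33 and 11.8 ± 2.47 CPM, CD40 had 10.3 ± 0.613 and 10.7 ± 1.14 CPM, and CR2 had at most 1 count in any library. Their summed level was 90.4 to 102 CPM in VENsens against 70.3 to 89.96 CPM in VENins lines. Of 5 plasma cell genes 4 were tested, all positive with a median of 0.21 and 0 called. MZB1 led them with 291 ± 10.5 and 328 ± 45.7 CPM, JCHAIN had 2.80 ± 0.806 and 3.98 ± 1.15 CPM and SDC1 7.37 ± 0.714 and 7.89 ± 1.86 CPM, for a sum of 288 to 313 CPM in VENsens against 290.3 to 417 CPM in VENins lines.

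Of 8 T-cell genes, 0 reached a mean of 1 CPM and 1 was tested, with a log2 fold change of -0.20 for CD3E, the most abundant. Their sum was 1.04 to 1.69 CPM in VENsens against 1.03 to 1.77 CPM in VENins lines, CD8A was at 0 in every library and CD3D and CD3G had at most 3 and 1 counts. Of 4 natural killer cell genes, NKG7 alone was tested, with 49.5 ± 3.16 and 53.7 ± 6.27 CPM (log2 fold change 0.11). KLRD1 was at 0 in every library and NCAM1 and GNLY had at most 2 and 4 counts, and the sum was 45.2 to 52.8 CPM in VENsens against 47.9 to 64.2 CPM in VENins lines. Of 8 myeloid genes 4 were tested, 1 positive and 3 negative with a median of -0.14 and 0 called. CSF1R led with 8.77 ± 1.48 and 10.2 ± 0.889 CPM and ITGAM followed with 4.70 ± 0.492 and 4.398 ± 0.731 CPM, while MPO and ELANE had at most 11 and 1 counts. The myeloid sum was 12.9 to 16.0 CPM in VENsens against 14.5 to 19.1 CPM in VENins lines. Of 4 erythroid genes 0 were tested, HBA1 was at 0 and KLF1, the most abundant, had a mean of 0.0795 CPM over all lines, with sums of 0.0399 to 0.145 CPM in VENsens against 0.0436 to 0.163 CPM in VENins lines.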

How the data were processed

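RNA-Seq of 10 RS4;11 lines, 5 VENsens and 5 VENins with 1 library each, was used. The authors deposited raw counts of reads per Ensembl gene identifier, without normalization. The submitters' processing notes name bcl2fastq 2.20.0.422, Bowtie2 2.3.5.1, SAMtools 1.9, HTSeq 0.9.1 and the build GRCh37 (hg19). The libraries were made with a TruSeq v2 RNA kit, which keeps no strand information, and the strand setting of the counting is not stated. Between 52.7% and 54.2% of 38491516 to 52960365 reads per library were counted on genes. Low alignment quality took 24.6% to 26.2%, no alignment 9.39% to 10.2%, no gene 7.29% to 7.78% and more than 1 gene 3.69% to 3.98%. These summary lines were left out of library sizes. Names, types, lengths and positions came from GENCODE 29 (GRCh38) by identifier, which matched 52526 of 63677 identifiers and 99.1% of counts, and positions printed are GRCh38.

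The analysis used edgeR 4.0.16 (filterByExpr with a minimum count of 10 and total of 15, TMM, quasi-likelihood test) and limma 3.58.1 in R 4.3.3. The model held line number as a block, because the study's methods describe a paired analysis, and condition. Benjamini-Hochberg adjustment covered all tested genes, and a gene was called at an adjusted p under 0.05. The F statistic gave standard errors and 95% intervals. A prior count of 2 entered log2 CPM. The steps were tested on simulated data. Tables and plots used Python 3.11.15, pandas 2.3.3, numpy 2.4.6 and matplotlib 3.10.9. Alternatives were DESeq2 1.42.0 with and without the block, edgeR without the block, RLE size factors, library size alone, other filters, offsets for length and GC content, each line pair left out, library size alone for CPM and the longest transcript as length.

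The members and lists were chosen with earlier results of these data known. The lists cover receptor partners, proximal signalling, inhibitors, downstream genes, recombination and end joining, B-lineage transcription factors, the pro-B and pre-B stages, the B lineage, mature B cells, plasma cells, T cells, natural killer cells, myeloid and erythroid cells. All members were named, and of each list the genes with an adjusted p under 0.05 and the 4 with the smallest p at a mean of at least 1 CPM, with markers of cell types, the most abundant gene of lists of other cell types and, for each member, the 2 genes most correlated with it. Neighbouring genes, motifs, groups by exon length and correlations without VENins lines 2 and 5 were added after the values were seen, as were alternatives for CBLB and PAX5 and values of IGKC, ZAP70, LAT2, TCF12 and CCND3. Some genes that these rules name are not reported here. Correlations over lines are descriptions without a p.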

Additional observations from a re-analysis of the deposited data

Results flagged for a closer look

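In groups of 5 lines, a line was picked out when its gap to the nearest other line took more than 0.71 of the group's range. This held in 11 of 86 groups. The cutoff picks out about 1 in 20 independent groups with normally distributed values. These groups share the same libraries, so that rate is no test of the count. The groups were those of the members and of reported genes named by the p of their list, with a mean of at least 1 CPM. Genes reported for other reasons, such as LAT2 and PRR5L, were not searched, so the lines named below are not a full list.

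Among members, VENins line 4 lay far above the other VENins lines for DNTT (27.3 CPM, next 3.38, share of range 0.912) and for BLNK (9.55 CPM, next 3.09, share 0.771). VENins line 5 was far above the others for IGLL1 (899 CPM, next 747, share 0.783).

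Among the searched groups, VENsens line 2 was the far line for 5 genes. It was highest for INPP5D (209 CPM, share 0.792), ATM (163 CPM, share 0.771), CD38 (137 CPM, share 0.758) and CBL (122 CPM, share 0.735), and lowest for CSF1R (6.15 CPM, share 0.864).

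VENsens line 1 was highest for IGHM (939 CPM, share 0.738). VENins line 4 was highest in its group for IRF4 (198 CPM, share 0.729), and VENins line 5 for ITGAM (5.66 CPM, share 0.724). For the genes other than members, the part of these lines in the difference between groups was not tested.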

How the results depend on the processing

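The 33 genes called by edgeR with the line block became 149 with no replicate block, 217 with DESeq2 and the block, 739 with DESeq2 and no block, 664 with no filter on low counts, 149 with length and GC offsets, and 6 to 331 with each line pair left out. The cause was not tested. The 0 members called became 2 (CD79B and RAG1) with no filter and 0 to 1 with each line pair left out, the 1 being DNTT without pair 4; in the other alternatives 0 members were called.

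Same-numbered lines did not deviate together: the correlations of their deviations were -0.10, 0.03, -0.02, 0.01 and -0.08 for lines 1 to 5, and no line correlated best with its own number. The block was kept because the study's methods use it. Without the replicate block the log2 fold change of BLNK was 0.22 and that of DNTT 0.49, and in DESeq2 without it 0.21 and 0.49, where the adjusted p of both is missing. With each line pair left out, BLNK ranged from -0.71 to 0.23, DNTT from -1.44 to 0.049 and CD79A from -0.020 to 0.14, and BLNK was also positive without pair 1 (0.05) and without pair 2 (0.0078). Of 130 alternative values of the members' log2 fold changes, 118 kept their direction and side of the threshold, 9 changed sign and 3 passed the threshold. VPREB1, IGLL1, CD79B, SYK, BTK, RAG1 and RAG2 kept their sign in all 13 alternatives. Scaling by library size alone moved each of the 20 mean CPM values by less than 1 SD, and with the longest transcript the order per kilobase of the means over all lines was the same, while RAG1 was above SYK in VENsens lines. Alternatives for CBLB and PAX5 were run after their values were seen. Their calls were lost with some line pairs left out (CBLB 2 of 5, PAX5 3 of 5) and held in the other 8 alternatives. With line pairs left out the log2 fold changes were -0.61 to -0.46 for CBLB and -0.34 to -0.26 for PAX5. With length and GC offsets they were -0.46 for CBLB and -0.24 for PAX5. Without pair 4 the SE of DNTT went from 0.52 to 0.16; BLNK had as few as 27 counts and DNTT 23 in a library.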
